A study of Homo sapiens with 6 samples.

Results

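The chains of integrins and laminins were examined in H2452, an established pleural mesothelioma cell line. The members were the protein-coding genes of the count table whose symbols name an integrin alpha chain (ITGA), an integrin beta chain (ITGB) or a laminin alpha, beta or gamma chain (LAMA, LAMB, LAMC). There were 38 such genes among the 58735 in the table, of which 37 are reported, 26 integrin chains and 11 laminin chains. The study set 3 sgCtrl libraries, from cells that carried a scrambled guide RNA and are labelled wild type, beside 3 sg*NF2*-1 libraries, from cells that carried a guide RNA against *NF2* and are labelled as the knockout. Cas9, the guide RNA and the mCherry marker were delivered on 1 lentiviral vector in both arms, and marked cells were sorted and used as a population, not as clones, so that unedited cells or cells with an in-frame edit may be included. A single guide RNA and a single cell line are represented. The labels list the libraries as separate samples and do not tie them to separate cultures. The study's methods call replicates biological for its data in general, without saying how these libraries were grown. The p-values measure the spread between these libraries, which may be in part technical.

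Integrins are receptors made of 1 alpha and 1 beta chain that span the plasma membrane. Outside the cell they bind matrix proteins or other cells, and inside the cell they are linked to actin or, through ITGB4, to keratin filaments. Laminins are secreted trimers of 1 alpha, 1 beta and 1 gamma chain, which are named by the numbers of their chains and form the sheet-like core of basement membranes. Mesothelial cells rest on such a membrane. *NF2* encodes merlin, a protein of the cell cortex that acts upstream of the Hippo pathway, whose effectors YAP and TAZ use TEAD factors to bind DNA.

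Library depth lay between 14782423 and 17416463 counts. *NF2*, the targeted gene, was read 1162, 1197 and 1025 times in the sgCtrl libraries and 692, 802 and 590 times in the sg*NF2*-1 libraries, so its RNA was reduced but still present, with a log2 fold change of -0.69 ± 0.10 (SE; adjusted p = 7.9e-06, edgeR). The paper assessed the knockout by western blot, and the RNA level alone does not show how much protein remained. All 8 mesothelial markers were read often enough to be tested, and their summed level was 3260 to 3680 CPM (counts scaled to library size) in sgCtrl and 2860 to 3510 CPM in sg*NF2*-1. Most of that sum came from the keratins *KRT8*, *KRT18* and *KRT19*, with means of 1961, 797 and 566 CPM in sgCtrl. *PDPN*, *MSLN*, *WT1*, *CALB2* and *UPK3B* had means of 67.9, 36.4, 10.0, 4.3 and 2.3 CPM there. *MSLN* and *KRT18* were higher and *PDPN*, *WT1* and *KRT19* lower in sg*NF2*-1, and the call of *KRT18* was lost without sgCtrl replicate 1 (adjusted p = 0.061) or 2 (0.095) and without sg*NF2*-1 replicate 3 (0.066), by edgeR. Of 8 leukocyte markers 2 were tested and 1, *CD14*, fell (log2 fold change -1.06), while *PTPRC* and *TYROBP* were at 0 in every library. Of 5 endothelial markers 2 were tested and 1, *PECAM1*, fell (-2.28, adjusted p = 1.7e-07), and the summed level of the list was 6.39 to 8.71 CPM in sgCtrl and 1.99 to 3.30 CPM in sg*NF2*-1, with *TEK* at 0. Of 4 platelet markers 1 was tested, *GP1BA* (-0.65, adjusted p = 0.051, with 0.015 to 0.21 over all alternatives), with a sum of 2.77 to 4.45 and 2.33 to 2.53 CPM and 3 genes at 0. The part of these markers in the values of the chains was not tested. Within a group, library pairs differed by more than counting error (chi-square divided by degrees of freedom, 5.18 to 12.8), and no library was counted as a repeat of another.

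In the sg*NF2*-1 libraries 3 of the 4 collagen-binding receptor chains had the lowest levels of the tested chains relative to sgCtrl. *ITGA11*, *ITGA2* and *ITGA1*, which each pair with ITGB1 to bind collagen, were at 25%, 35.8% and 37.8% of their mean CPM in sgCtrl. *ITGB1* itself, the beta chain shared by most integrins of the line, fell to 66.9%. The RGD-binding chains *ITGA5* and *ITGAV* and the laminin chains *LAMA4*, *LAMB1*, *LAMB2* and *LAMC1* also fell. The laminin-binding chains *ITGA3*, *ITGA6* and *ITGA7* did not pass the test. *ITGB4* rose by 0.22 on the log2 scale, a call that was lost with 5 of the 6 single libraries left out.

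Of the 37 chains, 26 were read often enough to be tested and 14 of these were called at an adjusted p under 0.05 (edgeR's quasi-likelihood test, Benjamini-Hochberg over the 14179 tested genes). The called chains were 13 lower and 1 higher in sg*NF2*-1. Over all tested genes, 34.3% were called by the same rule, 16.6% lower and 17.7% higher. The median log2 fold change of the tested chains was -0.45, beside 0.00 over all tested genes. With a log2 fold change beyond 0.5 asked for as well, 9 chains were lower and 0 higher by edgeR, where 9.32% and 8.42% of all tested genes were, and the same rule at an unadjusted p gave 10 lower and 0 higher. The 3 libraries of each group did not overlap, in CPM, for 17 lower and 1 higher chain, beside 22.2% and 23.2% of all tested genes, 45.3% together. *ITGA10* and *ITGA4* are among the 17 and enter the median, and *ITGA4* is among the 10 lower at an unadjusted p. Both passed the filter on low counts through sgCtrl alone, so that filter favours a lower value for them. Neither is among the 13 called lower by edgeR's test. Chains read strongly enter such a test with less counting error. Among the 8970 genes whose mean reached 10 CPM, 18.7% were called lower and 22.9% higher, and of the 19 chains in that range 11 were lower and 1 was higher. Fewer cells that make a chain and less of its RNA per cell cannot be told apart in these bulk samples.

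**Figure D1:**
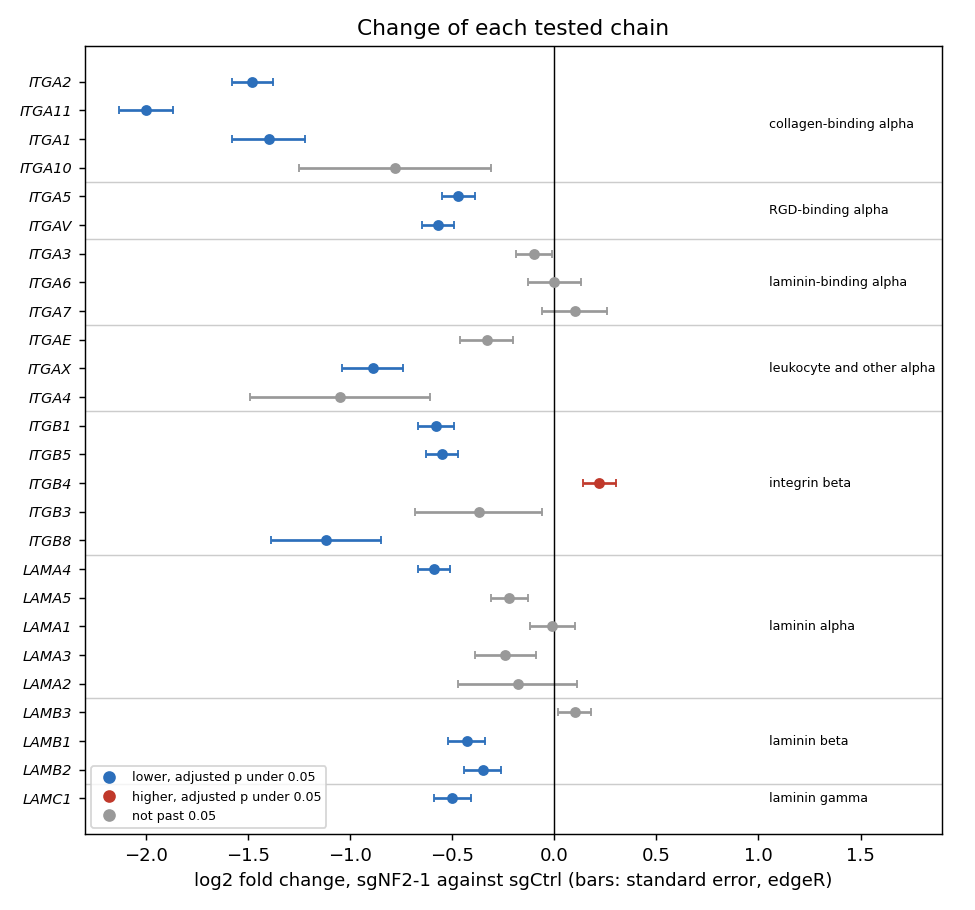
Log2 fold change of the 26 tested chains, sgNF2-1 against sgCtrl, with the standard error of the edgeR fit, grouped by class or ligand. Blue marks the 13 chains called lower, red the 1 called higher and grey the 12 not past the threshold; ITGA11 is farthest to the left at -2.00 and ITGB4 farthest to the right at 0.22.

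The DNA just before the start of the chains that these results turn on is shown first. It is context for the TEAD factors named above and for AP-1, a further factor whose site was searched. No link between AP-1 and *NF2* was tested. RefSeq starts on GRCh38.p14 were matched by symbol for 26 of the 37 chains. No entry was used for *ITGA3*, *ITGA7*, *ITGA9*, *ITGAD*, *ITGAL*, *ITGAX*, *ITGB2*, *ITGB3*, *ITGB4*, *LAMA1* and *LAMC3*. The 250 bases before each start were searched on both strands for GGAATG, the core of the site that TEAD factors bind, and for TGANTCA, the site of AP-1, in which N is any base. Each line gives the chain, the window and its strand, and the sequence 5′ to 3′ up to the start, with matches in capitals. *ITGA2* and *ITGA11* are shown for their fall, *ITGB1* and *ITGA5* as lower chains with a match to GGAATG, *LAMC1* for the ubiquitous gamma chain, and *LAMA3* and *LAMB3* as chains known from epithelia, with matches to TGANTCA. *ITGB1* and *LAMB3* have several starts in the table, and the one with the match is given.
ITGA2, chr5:52989102-52989351, + strand: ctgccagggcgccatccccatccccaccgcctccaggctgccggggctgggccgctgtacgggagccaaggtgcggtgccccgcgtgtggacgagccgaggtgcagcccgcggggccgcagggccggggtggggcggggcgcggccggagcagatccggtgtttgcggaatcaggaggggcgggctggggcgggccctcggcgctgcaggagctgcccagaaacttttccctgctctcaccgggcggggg
ITGA11, chr15:68432164-68432413, - strand: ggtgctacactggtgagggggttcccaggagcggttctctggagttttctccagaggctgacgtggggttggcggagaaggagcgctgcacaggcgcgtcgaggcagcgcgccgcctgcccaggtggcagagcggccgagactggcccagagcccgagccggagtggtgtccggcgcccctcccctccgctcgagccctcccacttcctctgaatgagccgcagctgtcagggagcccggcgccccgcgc
ITGB1, chr10:32958231-32958480, - strand: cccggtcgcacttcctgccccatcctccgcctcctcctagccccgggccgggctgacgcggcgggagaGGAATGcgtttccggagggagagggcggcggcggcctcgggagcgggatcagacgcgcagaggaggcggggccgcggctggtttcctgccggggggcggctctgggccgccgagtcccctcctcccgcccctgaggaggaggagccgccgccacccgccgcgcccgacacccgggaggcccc
ITGA5, chr12:54419267-54419516, - strand: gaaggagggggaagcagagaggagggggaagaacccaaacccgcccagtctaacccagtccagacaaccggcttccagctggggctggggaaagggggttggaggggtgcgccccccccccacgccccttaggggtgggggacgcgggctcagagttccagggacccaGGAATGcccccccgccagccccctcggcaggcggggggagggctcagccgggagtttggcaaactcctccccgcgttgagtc
LAMC1, chr1:183023170-183023419, + strand: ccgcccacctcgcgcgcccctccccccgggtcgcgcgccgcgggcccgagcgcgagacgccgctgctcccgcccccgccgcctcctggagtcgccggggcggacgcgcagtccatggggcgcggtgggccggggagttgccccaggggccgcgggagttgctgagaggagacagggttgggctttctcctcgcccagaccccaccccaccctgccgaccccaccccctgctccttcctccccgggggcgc
LAMA3, chr18:23872770-23873019, + strand: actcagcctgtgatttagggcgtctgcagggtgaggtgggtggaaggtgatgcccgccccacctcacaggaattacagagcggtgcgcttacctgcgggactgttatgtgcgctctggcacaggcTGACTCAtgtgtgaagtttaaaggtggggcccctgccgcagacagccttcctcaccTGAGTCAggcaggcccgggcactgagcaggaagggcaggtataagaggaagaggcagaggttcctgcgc
LAMB3, chr1:209651375-209651624, - strand: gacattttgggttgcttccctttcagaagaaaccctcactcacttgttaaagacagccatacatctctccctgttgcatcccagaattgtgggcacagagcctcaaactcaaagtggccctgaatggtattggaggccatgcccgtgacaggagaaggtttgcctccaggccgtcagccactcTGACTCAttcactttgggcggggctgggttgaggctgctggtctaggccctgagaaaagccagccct

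The 20 tested chains with an entry had 27 such windows. GGAATG was found in 4 of them, once each for *ITGA5*, *ITGB1*, *ITGA10* and *LAMA2*, and in 11.9% of the 35116 windows of all genes. In *ITGA5* it began 82 bases and in *ITGB1* 182 bases before a start inside the span of the gene. *ITGA5* and *ITGB1* were called lower, and *ITGA10* and *LAMA2* were not called. TGANTCA was found in 2 windows, those of *LAMA3* and *LAMB3*, and in 6.57% of all. It stood 2 times in *LAMA3*, beginning 125 and 69 bases before a start inside the gene. In *LAMB3* it stood once, beginning 67 bases before a start that also lies inside the gene, and the other windows of *LAMB3* held none. Neither *LAMA3* nor *LAMB3* was called. The windows of *ITGA2*, *ITGA11* and *LAMC1* held neither set of letters. The GC content was 76.4% in *ITGA2*, 71.2% in *ITGA11* and 79.6% in *LAMC1*. The median was 58.0% over all windows and 62.0% over the 27 of the tested chains. Other lower chains lay on both sides of the latter, such as *LAMA4* at 48.4% and *LAMB1* at 70.4%. These letters were read from the reference, and no binding was measured.

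Laminins, the ligands, came in levels that differ widely between chains. Levels of different genes are compared here as FPKM, which divides by gene length. *LAMB3*, a chain known from epithelia, had the highest level of the 11, with 118 ± 10.4 FPKM in sgCtrl and 126 ± 5.28 in sg*NF2*-1 (SD, n = 3). *LAMA4*, the alpha chain of laminins of vessels and mesenchyme, followed with 44.4 ± 2.07 and 29.2 ± 1.31 FPKM. *LAMC1*, the gamma chain of nearly all laminins, and *LAMB1* had 38.7 ± 2.83 and 35.2 ± 3.49 FPKM in sgCtrl, with overlap between their libraries. *LAMA3*, the alpha chain that joins LAMB3, was far below it, at 0.663 ± 0.0843 FPKM in sgCtrl.

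*LAMA4* had 514, 563 and 549 CPM in the sgCtrl libraries and 375, 361 and 344 CPM in the sg*NF2*-1 libraries. The groups stood clearly apart. Its log2 fold change was -0.59 ± 0.08 (SE; adjusted p = 3.3e-06). *LAMA5*, the alpha chain of most adult basement membranes, had 383, 372 and 296 CPM in sgCtrl and 297, 299 and 308 CPM in sg*NF2*-1. The third sgCtrl library lay at the level of the knockout libraries, and the groups overlapped. *LAMA5* was not called, at -0.22 ± 0.09 (adjusted p = 0.066), and without sgCtrl replicate 3 it was called lower, at -0.32 (adjusted p = 0.0034, with 0.0034 to 0.29 over all alternatives). *LAMA1* (-0.01), *LAMA2* (-0.18) and *LAMA3* (-0.24) were not called. *LAMA3* had 8.88, 11.5 and 10.5 CPM in sgCtrl and 8.13, 8.68 and 9.41 CPM in sg*NF2*-1, so that the groups overlapped.

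Among the beta chains, *LAMB1* had 312, 326 and 269 CPM in sgCtrl and 236, 234 and 203 CPM in sg*NF2*-1. All knockout libraries were below all control libraries, and its log2 fold change was -0.43 ± 0.09 (adjusted p = 4.7e-04). *LAMB2*, which replaces LAMB1 in the laminins of muscle, kidney and vessel membranes, fell by 0.35 on the log2 scale (SE 0.09; adjusted p = 0.0030), from 119 to 148 CPM to 101 to 111 CPM. *LAMB3* was not called. It had 636, 585 and 534 CPM in sgCtrl and 607, 655 and 619 CPM in sg*NF2*-1, with overlap between the groups, and a log2 fold change of 0.10 ± 0.08 (adjusted p = 0.39).

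*LAMC1* had 322, 371 and 337 CPM in sgCtrl and 258, 251 and 221 CPM in sg*NF2*-1. Every knockout library was below every control library. Its log2 fold change was -0.50 ± 0.09 (adjusted p = 6.2e-05). The gene lies on chromosome 1 at 183023460 to 183145592 (hg38). *LAMC3*, a gamma chain of a few tissues, was read too seldom to be tested.

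Put together by trimer, all 3 chains of laminin 411 (*LAMA4*, *LAMB1*, *LAMC1*) and of laminin 421 (with *LAMB2*) were called lower. In laminins 511 and 521 the beta and gamma chains were lower and *LAMA5* was not called, and in laminin 111 the same held with *LAMA1*. Chains are shared between these trimers, so the counts are not independent, and no trimer was measured. Summed over the class, the alpha chains went from 70.4 ± 3.46 to 51.7 ± 1.11 FPKM, with no overlap. The beta chains had 172 ± 15.2 and 166 ± 6.32 FPKM, with overlap, and *LAMB3* made 68.7% ± 1.21 of that sum in sgCtrl and 75.6% ± 0.752 in sg*NF2*-1. The share of *LAMA4* among the alpha chains was 63.0% ± 3.53 and 56.5% ± 1.33. The groups did not overlap in either share.

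**Figure D2:**
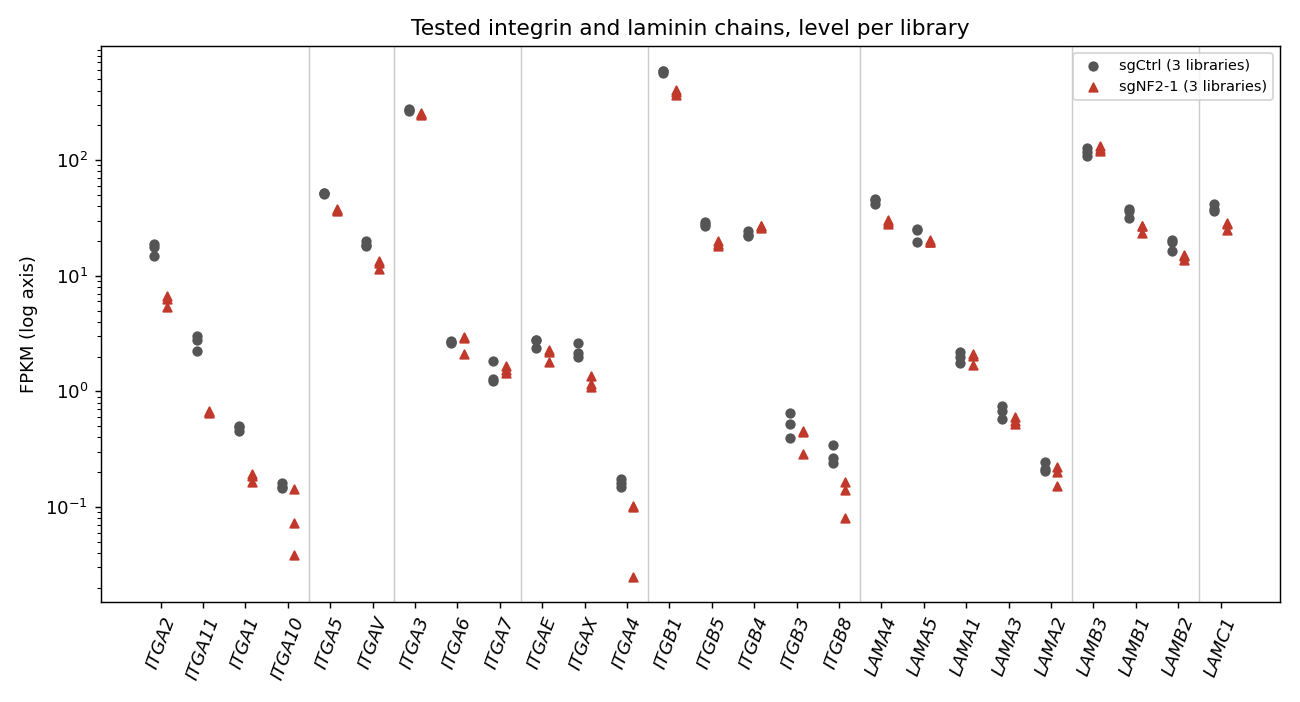
FPKM of the 26 tested chains in each library on a log axis, with sgCtrl as grey circles and sgNF2-1 as red triangles, ordered by class or ligand and then by level. ITGB1 (579 FPKM in sgCtrl), ITGA3 (272) and LAMB3 (118) stand above all other chains, and the collagen-binding chains ITGA2, ITGA11 and ITGA1 show the widest gaps between the groups.

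Of the receptors, the 4 alpha chains that bind collagen were all tested and 3 were called lower. *ITGA2*, a receptor for collagens and also for some laminins, had 124, 156 and 150 CPM in sgCtrl and 52.7, 55.8 and 45.2 CPM in sg*NF2*-1. *ITGA11*, a receptor for fibrillar collagen I in mesenchymal cells, had 25.8, 31.9 and 34.6 CPM in sgCtrl and 7.73, 7.77 and 7.58 CPM in sg*NF2*-1. *ITGA1*, a receptor that prefers collagen IV, had 8.82, 9.87 and 9.69 CPM in sgCtrl and 3.69, 3.24 and 3.79 CPM in sg*NF2*-1. Every knockout library was far below every control library in all 3 genes. The log2 fold changes were -1.48 ± 0.10 for *ITGA2* (adjusted p = 3.0e-11), -2.00 ± 0.13 for *ITGA11* (adjusted p = 3.2e-11) and -1.40 ± 0.18 for *ITGA1* (adjusted p = 1.2e-06). With any 1 library left out, they ranged from -1.58 to -1.40, from -2.11 to -1.90 and from -1.45 to -1.33. On the scale of log2(FPKM + 1), which understates the change of low genes, *ITGA11* was at -1.14 and *ITGA1*, without a filter, at -0.33 (adjusted p = 0.024, limma), both still called. *ITGA10*, a collagen receptor known from cartilage, was read 4 to 17 times per library and was not called (-0.78 ± 0.47, adjusted p = 0.21). The summed FPKM of the 4 chains was 20.5 ± 2.44 in sgCtrl against 7.02 ± 0.656 in sg*NF2*-1.

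*ITGA1* and *ITGA2* lie on the same strand of chromosome 5, 30.1 kb apart, *ITGA1* at 52787896 to 52959210 and *ITGA2* at 52989326 to 53094779 (hg38), while *ITGA11* is on chromosome 15 at 68296533 to 68432162. The gene *PELO* lies inside *ITGA1* on the same strand and had 996% of its mean count. Reads of a shared stretch could be assigned to either gene or left out. *PELO* had a log2 fold change of -0.21 (adjusted p = 0.067). Its part in the value of *ITGA1* was not tested.

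The chains that bind the RGD motif of fibronectin and vitronectin were *ITGA5*, *ITGAV*, *ITGA8* and *ITGA2B*, of which the first pair were tested and both were lower. *ITGA5*, the fibronectin receptor with ITGB1, had 409, 416 and 413 CPM in sgCtrl and 291, 301 and 302 CPM in sg*NF2*-1. *ITGAV*, which pairs with several beta chains and can activate latent TGF-beta, had 157, 173 and 162 CPM in sgCtrl and 113, 117 and 101 CPM in sg*NF2*-1. The libraries of each group lay close together and apart from those of the other. The log2 fold changes were -0.47 ± 0.08 for *ITGA5* (adjusted p = 4.0e-05) and -0.57 ± 0.08 for *ITGAV* (adjusted p = 7.7e-06).

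Of the laminin-binding alpha chains, 0 of 3 were called by edgeR, 0 by DESeq2 and 0 at an unadjusted p under 0.05. Over all tested genes 34.3% were called by edgeR, and a count of 0 of 3 alone does not set these chains apart from that share. *ITGA3*, which pairs with ITGB1 as a receptor for laminins, had the highest level of all alpha chains, with 2770, 2860 and 2800 CPM in sgCtrl and 2560, 2600 and 2690 CPM in sg*NF2*-1. The knockout libraries were all slightly below the control libraries, and the log2 fold change was -0.10 ± 0.09 (adjusted p = 0.37). *ITGA6*, which pairs with ITGB4 in hemidesmosomes and with ITGB1 elsewhere, had 18.6, 18.5 and 18.1 CPM in sgCtrl and 20.7, 19.9 and 14.5 CPM in sg*NF2*-1, with overlap, and its log2 fold change was 0.00 ± 0.13. *ITGA7*, a laminin receptor of muscle, was at 0.10 ± 0.16. Summed FPKM of the 3 chains was 276 ± 4.26 in sgCtrl, beside 255 ± 5.76 in the knockout libraries, so that the sum was lower there, with no overlap. The share of *ITGA3* in the summed FPKM of all alpha chains was 73.0% ± 0.390 in sgCtrl and 79.6% ± 0.809 in sg*NF2*-1, while that of *ITGA2* was 4.60% ± 0.475 and 1.93% ± 0.225, and neither overlapped.

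The other alpha chains are mostly those of leukocytes. *ITGAX*, known as CD11c of dendritic cells and macrophages, had 16.1, 19.6 and 14.9 CPM in sgCtrl and 10.3, 8.75 and 8.15 CPM in sg*NF2*-1. The groups did not overlap, and it fell by 0.89 on the log2 scale (SE 0.15; adjusted p = 3.6e-05). Its only known beta chain, *ITGB2*, was read 0 to 10 times per library. The summed level of the 8 leukocyte markers was 136 to 150 CPM in sgCtrl and 65.2 to 72.7 CPM in sg*NF2*-1, nearly all of it *CD14* (log2 fold change -1.06), and *PTPRC*, the defining marker of leukocytes, was at 0. *ITGAE* (-0.33, adjusted p = 0.055), the CD103 chain of epithelial T cells, and *ITGA4* (-1.05, adjusted p = 0.070), a receptor for VCAM1 and fibronectin, were not called. *ITGAE* was called lower without sgCtrl replicate 2 (adjusted p = 0.042) or without sg*NF2*-1 replicate 2 (adjusted p = 0.046), at -0.40 in both, and its adjusted p was 0.041 to 0.27 over all alternatives.

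Among the beta chains, 5 of 8 were tested, 3 fell and 1 rose. *ITGB1* had 3570, 3720 and 3730 CPM in sgCtrl and 2570, 2470 and 2330 CPM in sg*NF2*-1. *ITGB5*, the partner of ITGAV for vitronectin, had 197, 190 and 184 CPM in sgCtrl and 129, 124 and 137 CPM in sg*NF2*-1. *ITGB8*, the partner of ITGAV for latent TGF-beta, had 3.81, 4.26 and 5.54 CPM in sgCtrl and 2.67, 1.3 and 2.25 CPM in sg*NF2*-1. In each gene all knockout libraries were below all control libraries, widely for *ITGB1* and *ITGB5* and with more scatter for *ITGB8*. The log2 fold changes were -0.58 ± 0.09 for *ITGB1* (adjusted p = 1.2e-05), -0.55 ± 0.08 for *ITGB5* (adjusted p = 7.3e-06) and -1.12 ± 0.27 for *ITGB8* (adjusted p = 0.0023). *ITGB8* was read 20 to 84 times per library. *ITGB3*, the partner of ITGAV on endothelium and of ITGA2B on platelets, was not called (-0.37 ± 0.31, adjusted p = 0.38).

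*ITGB4*, the hemidesmosome chain with a long cytoplasmic tail that reaches keratin, had 162, 173 and 158 CPM in sgCtrl and 192, 186 and 194 CPM in sg*NF2*-1. The knockout libraries were all above the control libraries, by a small step. The log2 fold change was 0.22 ± 0.08 (adjusted p = 0.035). This call was lost with 5 of the 6 single libraries left out, with an adjusted p of up to 0.10 and a log2 fold change of 0.19 to 0.26: without sgCtrl replicate 1 (0.10) or 3 (0.079), and without sg*NF2*-1 replicate 1 (0.094), 2 (0.066) or 3 (0.051). Of the summed FPKM of beta chains, *ITGB4* made 3.65% ± 0.165 in sgCtrl and 6.17% ± 0.337 in sg*NF2*-1, and *ITGB1* made 91.8% ± 0.349 and 89.3% ± 0.717, with no overlap in either. The beta chains summed to 631 ± 13.6 FPKM in sgCtrl and 430 ± 19.0 in sg*NF2*-1, and the alpha chains to 372 ± 7.73 and 315 ± 5.51 FPKM.

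Ratios between chains were taken within each library, where the scaling of the library drops out. They were chosen after the chain values had been seen. *ITGB1* had 2.10, 2.12 and 2.17 times the FPKM of *ITGA3*, its most abundant partner, in sgCtrl and 1.64, 1.55 and 1.41 times in sg*NF2*-1. *ITGA3* had 18.1, 14.8 and 15.1 times the FPKM of *ITGA2* in sgCtrl and 39.1, 37.6 and 48.0 times in sg*NF2*-1. The excess of the laminin receptor chain over the collagen receptor chain was thus larger in every knockout library. *ITGB1* had 25.2 ± 1.24 times the FPKM of *ITGB4* in sgCtrl and 14.5 ± 0.880 times in sg*NF2*-1. *LAMA4* had 1.94 ± 0.321 times the FPKM of *LAMA5* in sgCtrl and 1.48 ± 0.0933 times in sg*NF2*-1. Of the 6 ratios compared, 4 did not overlap between the groups, each with p = 0.10 in a two-sided exact permutation test, which is the smallest value that 3 libraries against 3 allow (adjusted p = 0.15 over the 6). The ratios of *LAMB3* to *LAMA3* (p = 0.20) and of *ITGB4* to *ITGA6* (p = 0.30) overlapped by the same exact test.

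The 11 chains that were not tested were *ITGA2B*, *ITGA8*, *ITGA9*, *ITGAD*, *ITGAL*, *ITGAM*, *ITGB2*, *ITGB6*, *ITGB7*, *LAMB4* and *LAMC3*. None was read more than 10 times in a library or 30 times in all. *ITGB7*, the beta chain of gut-homing lymphocytes, had 0 counts in every library, and 3 counts over the 94694781 of all libraries would be 0.0317 CPM. *ITGA2B*, *ITGAL*, *ITGAM* and *ITGB2*, chains of platelets and leukocytes, had 0 to 10 counts per library. Of the 26 tested chains, 2, *ITGA10* and *ITGA4*, passed the filter on low counts through sgCtrl alone.

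Genes that overlap a chain were examined, because the sources used here do not give whether counting used strand. *ADRM1* overlaps *LAMA5* on the opposite strand, with 46.7% of its mean count, and was higher in sg*NF2*-1 (log2 fold change 0.29, adjusted p = 0.017). *DLD* overlaps *LAMB1* (33.7% of its count, -0.22, adjusted p = 0.063) and *GALK1* overlaps *ITGB4* (16.5%, 0.04, adjusted p = 0.86). *HASPIN* inside *ITGAE* had 45.4% of its count and *BLOC1S1* beside *ITGA7* 88.5%, and neither was called. *AC116914.2*, with 3.76% of the count of *ITGAE*, was lower (-1.53, adjusted p = 0.024). *AC078883.1*, with 8.06% of the count of *ITGA6*, was at -0.90 (adjusted p = 0.05, edgeR). These are counts of whole genes. The stretch shared was 1.53% of *LAMA5* for *ADRM1*, 9.98% of *LAMB1* for *DLD* and 17.1% of *ITGB4* for *GALK1*. It was 3.23% of *ITGAE* for *HASPIN*, 0.0222% of *ITGA7* for *BLOC1S1* and 32.2% of *ITGA6* for *AC078883.1*. *AC068234.1* spans 99.9% of *ITGB3* on the same strand and had 0 counts. Reads of that stretch could be left out of both genes under either strand setting. For *ITGB1*, *LAMA4*, *ITGA2*, *ITGA11*, *ITGAV*, *ITGA5*, *ITGB5* and *LAMC1*, any overlapping gene had under 1% of the chain's count. What such overlaps contribute to the values of the chains was not tested.

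Cytoplasmic partners of integrins moved in both directions. Of 38 genes of the adhesion complex 36 were tested, 10 were higher and 8 lower, and their median log2 fold change was 0.03. Beside this list and those that follow, 17.7% of all tested genes were higher and 16.6% lower, with a median of 0.00. The lists were chosen with earlier results of these data known. *TLN2* (1.37, adjusted p = 2.1e-10), a talin that binds the tails of beta chains, *TGFB1I1* (0.88), a paxillin relative, and *TNS4* (0.68), a tensin of epithelial cells, rose the most. The call of *TNS4* was lost without sgCtrl replicate 1 (0.57, adjusted p = 0.058) and without sg*NF2*-1 replicate 1 (0.61, adjusted p = 0.058). *TNS1* (-1.89, adjusted p = 3.8e-07) and *TNS2* (-0.70), tensins that tie integrins to actin, and *KANK2* (-0.76), which binds talin, fell the most. Of 22 other basement membrane genes and non-integrin laminin receptors 18 were tested, 2 were higher and 9 lower, with a median of -0.32. The type IV collagen chains *COL4A6* (-1.56, adjusted p = 1.1e-10) and *COL4A5* (-1.52, adjusted p = 3.2e-11) and the laminin-binding linker *NID2* (-1.48) fell the most. *BCAM* (1.64, adjusted p = 4.0e-09), a receptor for LAMA5, and *NTN4* (1.28, adjusted p = 6.7e-09), a netrin that binds laminin, were the 2 that rose.

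Of 33 other integrin ligands 28 were tested, 18 were lower and 2 higher, with a median of -0.54. Among all tested genes, 16.6% were lower and 17.7% higher. The fibrillar collagens, the ligands of ITGA2 and ITGA11, had the largest falls of the list, with log2 fold changes of -3.90 ± 0.16 for *COL3A1* (adjusted p = 2.2e-15), -2.95 ± 0.12 for *COL1A2* (adjusted p = 2.2e-15) and -2.95 ± 0.26 for *COL1A1* (adjusted p = 4.0e-09). *FN1*, the ligand of ITGA5, was at -0.56 ± 0.11 (adjusted p = 2.2e-04, with up to 0.084 over all alternatives). *LTBP1* (0.79, adjusted p = 0.016), which holds latent TGF-beta in the matrix, and *CTGF* (0.74, adjusted p = 7.6e-06), a secreted matrix protein, rose. Without sg*NF2*-1 replicate 3 *LTBP1* was at 0.54 and no longer called (adjusted p = 0.14).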

How the data were processed

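The members, lists and ratios were chosen with earlier results of these data known. The result for 1 member is not reported here. Groups came from the titles. The authors deposited 2 tables, read counts and FPKM, in which FPKM equals the count divided by gene length and by 1 depth per library. The submitters' processing notes name HISAT2, StringTie 1.3.3b, featureCounts 1.5.0-p3 and hg38, and the strand setting is not given in the sources used here. Counts were filtered with filterByExpr (minimum count 10, minimum total 15), scaled by TMM and tested by quasi-likelihood in edgeR 4.0.16 (R 4.3.3), with Benjamini-Hochberg adjustment over 14179 genes and the group as the only term. The standard error is the log2 fold change over the root of F. Alternatives used DESeq2 1.42.0, the tool of the paper's methods, and limma 3.58.1 on log2(FPKM + 1). The fit was tested on simulated data. By rule, values were given in full for members called beyond a log2 fold change of 0.5 or among the 2 highest FPKM of a class, and list genes were named if among the 3 largest called changes each way. *ITGB4*, *LAMB2*, *LAMA3*, *ITGA6*, *FN1*, the uncalled type IV collagen chains and the ratios were chosen after their values were seen. Positions are those of GENCODE release 29, and promoters are from RefSeq.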

Additional observations from a re-analysis of the deposited data

How the results depend on the processing

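With 3 libraries a group, small changes and chains under about 10 CPM are measured with wide error. The count of lower chains (13 of 26 tested) was 11 to 15 under the other fits and scalings. It was 10 and 9 under the rules that add a log2 fold limit of 0.5 to an unadjusted and an adjusted p. The 11 came from the FPKM fits. With their filter 20 chains were tested, without *ITGA1* and *ITGB8*, and with no filter 36 were tested. The count of higher chains (1, *ITGB4*) was 0 with library totals in place of TMM, under both rules with a fold limit and with FPKM and no filter, and 0 to 1 with 1 library left out. With FPKM and no filter, the adhesion complex had 6 higher and 5 lower genes and the basement membrane list 4 lower. With a fold limit of 0.5, these were 6, 5 and 3 at an unadjusted p, and 4, 4 and 3 at an adjusted p. The ligand list had 1 higher gene in all 3 FPKM settings. Among the chains, the other calls lost were those of *LAMB2* (adjusted p = 0.071, from 0.00034 over all alternatives), at an almost unmoved -0.34, and *ITGB8* (0.12, from 0.00023), at -0.19, both with log2(FPKM + 1) and no filter. The cause was not tested. On that scale *ITGAX* was at -0.56 and still called. Among the list genes named, that setting also ended the calls of *FN1* (-0.46, 0.084), *LTBP1* (0.24, 0.25), *TNS4* (0.32, 0.14) and *KRT18* (0.26, 0.19), and those of *TNS4* (0.055 and 0.057) and *KRT18* (0.070 and 0.067) were also lost with the filter at pseudocounts of 1 and 0.1. *ITGB4* was lost with library totals (0.070) and with FPKM and no filter (0.061), in a range of 0.022 to 0.10. The directions of chains near 0 turned. *LAMA1* had 0.00 with no filter, and -0.09 to 0.08 with 1 library left out. Left without 1 library at a time, *ITGA6* ranged from -0.09 to 0.15 and *ITGA7* from -0.01 to 0.29. *ITGA6* had -0.02 with library totals, 0.00 with 10 counts in every library, -0.01 with the replicate block, and -0.02, -0.03 and -0.02 with FPKM. The replicate numbers shared by the groups were not shown to pair the libraries, since the correlations of same-numbered libraries were -0.044, 0.091 and 0.071. With the replicate block, 14 chains were lower and 1 higher, *LAMA5* joining the lower chains (adjusted p = 0.039). *LAMA5* (0.041) and *ITGAE* (0.041) were also called with library totals, and *ITGAE* among protein-coding genes alone (0.049). With CPM in place of FPKM, the share of *ITGA3* was 77.3% and 83.3% and that of *LAMB3* 57.2% and 65.4%, in sgCtrl and sg*NF2*-1.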
